A study of Gallus gallus with 6 samples.

Results

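The cytosolic ribosomal protein genes are the group described here: 37 genes, 21 of the large and 16 of the small ribosomal subunit, out of 19219 genes in the count table of chick bursal cells at embryonic day (ED) 19 and ED16. They were chosen by name from the authors' table of genes called different between ED19 and ED16, which lists 8469 genes, 7093 of them with a gene symbol. A gene was a member when its symbol began with RPL or RPS and went on with a number, with P and a number (the acidic stalk proteins) or with the letter A alone (RPSA), and the kinases whose names begin with RPS6K were left out. Symbols came with called genes only, so every member had already been called by the authors in the contrast reported below. For that reason all stage differences of the members are given as descriptions, with no test, and ribosomal protein genes that were not called were not analysed here.

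Ribosomal proteins and ribosomal RNA form the small subunit, which reads the mRNA, and the large subunit, which joins the amino acids. Their mRNAs are short and abundant and, in vertebrates, begin with a run of pyrimidines through which growth signalling controls their translation. The bursa of Fabricius is the organ in which the B-cells of birds proliferate and diversify their immunoglobulin genes.

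The libraries came from Hy-Line W-36 commercial layer embryos, with 3 biological replicates at ED19 (ED19_4, ED19_5 and ED19_6) and 3 at ED16 (ED16_1, ED16_2 and ED16_3), and no treatment or mutation in either stage. Each replicate was a separate pool of many bursas, so a library averages over embryos. Lymphocytes were taken from a Histopaque density gradient, for which the study states no later sorting of B-cells. Poly-A selected mRNA was sequenced as paired-end reads.

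The ED19 libraries held 27087661 to 32961602 counts on genes and the ED16 libraries 30056824 to 34614652. Stages were compared on 13923 genes with edgeR's quasi-likelihood F test after TMM scaling, which sets the libraries to a common level, and a log2 fold change below 0 is lower at ED19. With a Benjamini-Hochberg adjusted p below 0.05, 35.6% of all tested genes were called lower at ED19 and 30.8% higher. The library ED19_6 stood apart from the other ED19 libraries for the genes described here, and values without it are given where they change a result. Gene symbols, and therefore cell type markers, could be found for called genes only. The markers found had thus already been called by the authors, and only their direction is described. Of 16 listed B-cell markers 6 were found. Of these, 5 were higher at ED19 and 1, BLK, was lower. Of 41 tested markers of other cell types, 40 were lower at ED19 and 1 was higher.

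Transcripts of the members took up a smaller share of the library at ED19 than at ED16. The members were selected on a call in this contrast, and ribosomal protein genes outside them do not enter the share. The 37 genes together held 2.65%, 2.52% and 4.34% of the counts in ED19_4, ED19_5 and ED19_6, against 6.55%, 5.89% and 7.06% in ED16_1, ED16_2 and ED16_3. The stages did not overlap, and ED19_6 lay between the other ED19 libraries and the lowest ED16 library. The mean share was 3.17 ± 1.01% (SD, n = 3) at ED19 and 6.50 ± 0.583% (SD, n = 3) at ED16. Counting error was small beside this spread. The exact (Clopper-Pearson) 95% interval ran from 4.34% to 4.35% in ED19_6 and from 5.88% to 5.90% in ED16_2. These intervals cover counting error only, because sequenced reads are not independent molecules.

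**Figure D1:**
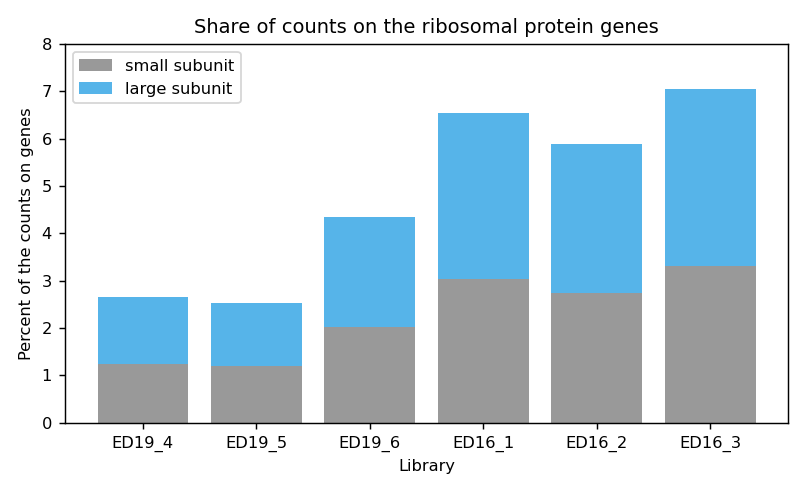
Percent of each library's counts on genes (vertical axis) that fell on the 37 ribosomal protein genes, split into small subunit (grey) and large subunit (blue), for the 3 ED19 and the 3 ED16 libraries. The ED19 bars reach 2.65%, 2.52% and 4.34% and the ED16 bars 6.55%, 5.89% and 7.06%.

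Both subunits shared this difference. Large-subunit genes held 1.69 ± 0.551% of the counts at ED19 and 3.47 ± 0.301% at ED16, and small-subunit genes 1.49 ± 0.464% at ED19 and 3.03 ± 0.283% at ED16 (SD, n = 3 each). The ratio of large-subunit to small-subunit counts was 1.13 ± 0.0171 at ED19 and 1.15 ± 0.0108 at ED16 (SD, n = 3 each). The lowest ratio, 1.11, was in ED19_5 and the highest, 1.16, in ED16_1, and the stages overlapped, since ED19_6 was at 1.15 and ED16_3 at 1.14. The balance between the subunits, over the members alone, thus varied little among the 6 libraries. Ribosomal protein genes outside the members do not enter this ratio.

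Gene by gene the direction was uniform. All 37 members had a log2 fold change below 0, where 51.4% of all tested genes did, and 33 of the 37 were called lower by edgeR, where 35.6% of all tested genes were. Because the members were selected on a call in this contrast, in either direction, the number called describes the selection. The rule did not set their direction, but all tested genes are no matched background for called genes. Nothing is read from these counts. The median log2 fold change of the members was -1.04, that is 2.06-fold lower at ED19, with quartiles at -1.39 and -0.81, and the median over all tested genes was -0.05. The median was -1.14 for the large subunit and -0.96 for the small subunit. Of the members, 20 were more than 2-fold lower at ED19, as were 29.2% of all tested genes. Standard errors of single members ranged from 0.24 to 0.42 on the log2 scale. Without ED19_6 the median of the members was -1.41 and all 37 were called, with 40.2% of all tested genes called lower in that fit. Without ED16_1, 20 members were called, against 30.9% of all tested genes. Without ED16_3, ED19_4 or ED19_5 it was 19 in each case, against 33.4%, 33.1% and 32.5% of all tested genes in the same order. In each of these fits all members stayed below 0.

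In RPKM, the reads per kilobase of gene scaled to the library total, which set genes of different length on a common scale, the median member stood at 935, 916 and 1604 RPKM in ED19_4, ED19_5 and ED19_6, against 2125, 2036 and 2411 RPKM in ED16_1, ED16_2 and ED16_3. Every ED19 library lay below every ED16 library. At both stages these were among the most abundant mRNAs. Of the 100 genes with the highest RPKM in a library, 24, 21 and 24 were members in the ED19 libraries and 30, 30 and 31 in the ED16 libraries. Single values spanned 131 to 8749 RPKM, while the median over all genes of the table was between 1.26 and 2.22 RPKM per library. The lowest count of any member in any library was 2813, so sampling of reads limits none of these values. In RPKM all 37 members were lower in the 3 ED19 libraries than in any ED16 library, as were 38.1% of all tested genes. After TMM scaling this held for 31 of the 37 members, where 38.4% of all tested genes were separated in this direction.

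**Figure D2:**
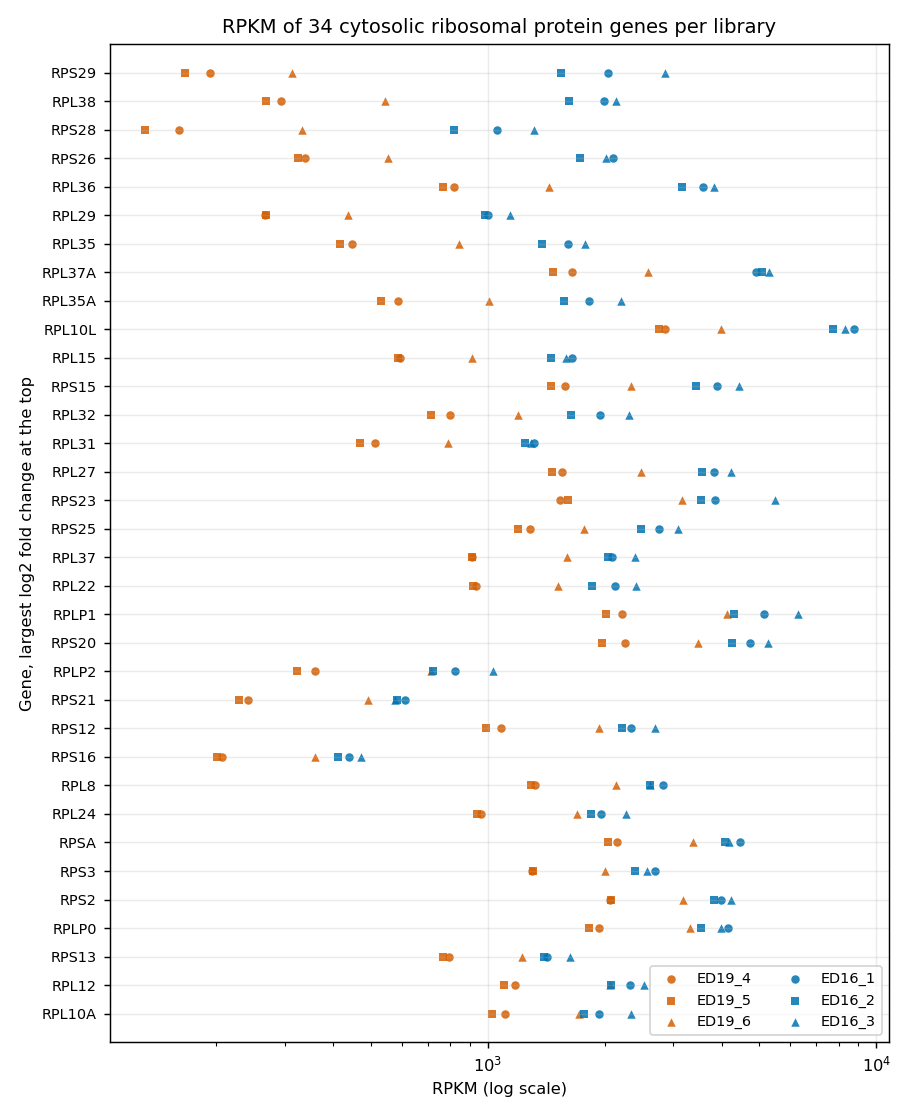
RPKM (horizontal log axis) of 34 of the 37 genes (rows, ordered by log2 fold change with the largest decrease at the top) in the 3 ED19 libraries (orange) and the 3 ED16 libraries (blue), with a marker shape for each library. RPS29 spans 166 to 314 RPKM at ED19 and 1547 to 2859 RPKM at ED16, and in the lowest row RPL10A spans 1028 to 1718 RPKM at ED19 and 1765 to 2342 RPKM at ED16.

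The largest differences were those of RPS29, RPL38, RPS28 and RPS26. RPS29, a zinc-binding protein of the small subunit, was at 192, 166 and 314 RPKM in ED19_4, ED19_5 and ED19_6, against 2035, 1547 and 2859 RPKM in ED16_1, ED16_2 and ED16_3. The stages lay far apart, with the highest ED19 library well below the lowest ED16 library. On the log2 scale the difference was -3.28 (standard error 0.37), a level 9.74-fold lower at ED19. The counts behind it were 4003, 3024 and 5362 at ED19 and 44452, 29348 and 56235 at ED16.

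RPL38, a large-subunit protein whose loss in mice alters the axial skeleton, had 294, 269 and 545 RPKM in the ED19 libraries, against 1990.5, 1619 and 2138 RPKM in the ED16 libraries. This is a log2 fold change of -2.39, with a standard error of 0.34. RPS28 and RPS26 sit where the mRNA leaves the small subunit. RPS28 had 160.3, 131 and 333 RPKM at ED19 and 1055, 817 and 1312 RPKM at ED16, and a log2 fold change of -2.36 (standard error 0.42). RPS26 had 338, 324 and 555 RPKM at ED19 and 2101, 1732 and 2013 RPKM at ED16, and a log2 fold change of -2.28 (standard error 0.30). In RPL38, RPS28 and RPS26 alike, ED19_6 was the highest ED19 library and still lay far below ED16_2, the lowest ED16 library. These 3 genes and RPS29 were the 4 members with a log2 fold change below -2, and in humans mutations of RPS26, RPS28 and RPS29 are known from Diamond-Blackfan anaemia, a failure of red cell production.

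The large-subunit proteins RPL36 and RPL29 followed in size of difference. RPL36 had 819, 769 and 1438 RPKM in ED19_4, ED19_5 and ED19_6 and 3582, 3154 and 3822 RPKM in ED16_1, ED16_2 and ED16_3, a log2 fold change of -1.82 (standard error 0.31). RPL29, whose loss in mice leaves small animals, had 267, 269 and 437 RPKM at ED19 and 1003, 986 and 1138 RPKM at ED16, a log2 fold change of -1.70 (standard error 0.27). For both genes the libraries of the stages were well separated, with ED19_6 nearest to the ED16 libraries.

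The proteins of the stalk, the arm of the large subunit that brings in the translation factors, had log2 fold changes between -0.93 and -0.69, with the median of all members at -1.04. For some of them this depended on the fit. Without ED19_6, RPLP2 and RPLP1 were at -1.41 and -1.39, with the median of all members at -1.41. RPLP0 and RPL12 were at -1.12 and -1.09 in that fit. Corrected for gene length (described below), RPLP2 was at -0.74, with that median at -0.45. After this correction RPLP0, RPLP1 and RPL12 were at -0.34, -0.16 and -0.056. RPLP0, which anchors the stalk, had 1937, 1822 and 3315 RPKM in the ED19 libraries, against 4151, 3541 and 3976 RPKM in the ED16 libraries. Its difference between the stages was -0.74 (standard error 0.32) on the log2 scale. ED19_6 came close to ED16_2 in RPKM, and after TMM scaling it passed it, with 3561 CPM (counts scaled to the library's total after TMM) in ED19_6 and 3457 CPM in ED16_2.

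RPLP1, an acidic protein that binds to RPLP0 as a dimer with RPLP2, had 2211, 2012 and 4121 RPKM at ED19 and 5141, 4294 and 6276 RPKM at ED16, a log2 fold change of -0.93 (standard error 0.35). RPLP2 had 360.1, 323 and 716 RPKM at ED19 and 826, 722 and 1031 RPKM at ED16, a log2 fold change of -0.89 (standard error 0.36). ED19_6 stood well above the other ED19 libraries for both, and for RPLP1 it reached 1.95 times their mean. RPL12, at the base of the stalk beside RPLP0, had 1174, 1103 and 2068 RPKM at ED19 and 2321, 2080.1 and 2519 RPKM at ED16, a log2 fold change of -0.69 (standard error 0.31). RPL10A, a protein of the opposite arm near the exit site of tRNA, had 1105, 1028 and 1718 RPKM at ED19 and 1934, 1765 and 2342 RPKM at ED16. Its log2 fold change of -0.67 (standard error 0.28) was the smallest of the 37. RPLP0, RPLP2, RPL12 and RPL10A were the 4 members that edgeR did not call. With RPLP1 and RPL24, a large-subunit protein at the interface to the small subunit, they were also the 6 members whose stages overlapped after TMM scaling, through ED19_6 above ED16_2.

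On the small subunit, the proteins at the entry of the mRNA channel were also among the members with small differences. RPS3 had 1302, 1306 and 1999 RPKM in ED19_4, ED19_5 and ED19_6, against 2688, 2391 and 2574 RPKM in ED16_1, ED16_2 and ED16_3. The log2 fold change of RPS3 was -0.76 (standard error 0.27). RPS2, its neighbour in the subunit, had 2064, 2072 and 3188 RPKM at ED19 and 3995, 3819 and 4216 RPKM at ED16, a log2 fold change of -0.74 (standard error 0.28). In both genes ED19_4 and ED19_5 were nearly equal and the stages did not overlap.

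RPS13, a small-subunit protein that binds ribosomal RNA in the platform region, had 793, 769 and 1223 RPKM at ED19 and 1424, 1396 and 1629 RPKM at ED16, a log2 fold change of -0.70 (standard error 0.26). RPSA, known also as the laminin receptor precursor, had 2156, 2035 and 3384 RPKM at ED19 and 4453, 4078 and 4173 RPKM at ED16, a log2 fold change of -0.77 (standard error 0.29). Both genes kept a gap between ED19_6 and the ED16 libraries. The members with the smallest differences that the authors still called were thus RPL10A, RPL12 and RPS13, at -0.67, -0.69 and -0.70, and the genes just outside the authors' call were not analysed here because they carry no symbol.

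Levels spanned a wide range over the members. The gene named RPL10L had the highest mean RPKM, with 2852, 2766 and 3995 RPKM in the ED19 libraries, against 8749, 7723 and 8321 RPKM in the ED16 libraries. In mammals RPL10L is the copy of RPL10 used in the testis, and whether this chicken gene is that copy or RPL10 itself cannot be told from its name. On the log2 scale it differed by -1.39 (standard error 0.25). Its length in the authors' calculation was only 339 bases, and RPKM divides by that length. By counts it did not rank first. It held 3.12% to 4.53% of the member counts per library, below RPSA, RPLP0 and RPS2 in every library. RPLP1 ranked next in mean RPKM, ahead of RPS20 and RPL37A.

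RPS20, a small-subunit protein in the head of the particle, had 2256, 1968 and 3481 RPKM at ED19 and 4730.2, 4241 and 5276 RPKM at ED16, a log2 fold change of -0.91 (standard error 0.29). RPL37A, a zinc-binding protein of the large subunit, had 1649, 1476 and 2581 RPKM at ED19 and 4903, 5093 and 5281 RPKM at ED16, a log2 fold change of -1.44 (standard error 0.28). The ED16 libraries were close together for RPL37A, with 5092 ± 189 RPKM (SD, n = 3), while the ED19 libraries averaged 1902 ± 594 RPKM (SD, n = 3).

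At the lower end, RPS16 had 207, 201 and 359 RPKM at ED19 and 441, 412 and 473 RPKM at ED16, a log2 fold change of -0.81 (standard error 0.30). Its length of 3272 bases in the authors' calculation was the longest of all members, and RPKM divides by that length. RPS21 had 241, 229.6 and 493 RPKM at ED19 and 614, 583 and 577 RPKM at ED16, a log2 fold change of -0.89 (standard error 0.33). RPS28 and RPLP2, given above, completed the 4 members with the lowest mean level. Among the members at this end ED19_6 reached at least 1.76 times the mean of ED19_4 and ED19_5.

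RPL22, a large-subunit protein that mice need for the development of alpha-beta T cells, had 935, 916 and 1518 RPKM at ED19 and 2125, 1854 and 2411 RPKM at ED16, a log2 fold change of -0.95 (standard error 0.28). All ED19 values of RPL22 lay below its ED16 values. Where a member has a near-identical copy in the genome, reads may have been split or lost between the copies, which was not checked here.

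Another 13 members lay between these, with log2 fold changes from -1.49 for RPL35 to -0.77 for RPL24. RPL35, at the exit of the tunnel through which the new protein leaves, had 448, 418 and 843 RPKM at ED19 and 1613, 1376 and 1779 RPKM at ED16. RPL35A, another large-subunit protein, came next at -1.42 (standard error 0.32). RPS23, which takes part in decoding, had the widest spread of these at ED16, with 1537, 1608 and 3154 RPKM at ED19 and 3837, 3530.0 and 5483 RPKM at ED16. Its log2 fold change of -1.04 (standard error 0.37) was the median of the 37. RPL8, near the site where peptide bonds form, stood near the other end of this range, with 1326, 1289 and 2136 RPKM at ED19 and 2832, 2619 and 2619.9 RPKM at ED16, a log2 fold change of -0.78 (standard error 0.28). RPL15, RPL27, RPL31, RPL32, RPL37, RPS12, RPS15 and RPS25 had log2 fold changes between -1.19 and -0.87.

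The order of the levels was largely kept between the stages. Across the 37 genes, Spearman's rho of mean RPKM between ED19 and ED16 was 0.914, a description over genes that share their libraries. Between single libraries it was 0.954 to 0.995 for the 6 pairs within a stage and 0.870 to 0.940 for the 9 pairs across the stages, with no overlap. The highest mean RPKM was 15.4 times the lowest at ED19 and 18.7 times at ED16.

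The make-up of the group can be read from each gene's share of all member counts, which does not depend on how libraries were scaled to each other. RPS29 made up 0.457%, 0.415% and 0.456% of the member counts in ED19_4, ED19_5 and ED19_6 and 1.96%, 1.66% and 2.56% in ED16_1, ED16_2 and ED16_3. RPS26 made up 1.34%, 1.35% and 1.34% at ED19 and 3.37%, 3.09% and 3.00% at ED16. In these shares ED19_6 lay with the other ED19 libraries, unlike in the levels. Of the 37 genes, 12 had shares at ED19 that were all below those at ED16, 13 had shares at ED19 that were all above, and 12 overlapped. Shares in a library add up to the whole, so a lower share of some members raises that of others. All 13 genes with higher shares had log2 fold changes below 0. Because the members were selected in this contrast, nothing is read from these counts. RPSA made up 8.70%, 8.64% and 8.34% of the member counts at ED19 and 7.28%, 7.41% and 6.33% at ED16, and RPLP0 7.21%, 7.13% and 7.54% at ED19 and 6.26%, 5.94% and 5.57% at ED16. The group with higher shares at ED19 also held RPS2, RPS3, RPL8, RPL12, RPS13 and RPL10A, and that with lower shares RPL38, RPS28, RPL36 and RPL29.

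The libraries ranked alike for most members. ED19_6 was the highest ED19 library for all 37 members, at a median of 1.65 times the mean of ED19_4 and ED19_5 in RPKM (range 1.42 to 2.29). ED19_5 was the lowest ED19 library for 32 members, ED16_3 the highest ED16 library for 28 and ED16_2 the lowest for 35. On log2 CPM centred on each gene's mean, the average of the members was -0.95, -0.99 and 0.020 in ED19_4, ED19_5 and ED19_6 and 0.65, 0.45 and 0.82 in ED16_1, ED16_2 and ED16_3. Beside this, 6 of 16 listed B-cell markers were found (LYN, BLNK, SYK, BACH2, BLK and TNFRSF13C). Their summed RPKM was 949, 992 and 699.8 in ED19_4, ED19_5 and ED19_6, against 287, 338 and 355 in ED16_1, ED16_2 and ED16_3. ED19_6 was thus the ED19 library with the lowest sum. LYN alone gave 467, 499 and 362 RPKM of the ED19 sums, and BLK was lower at ED19 than at ED16. Of the lists for other cell types, only that of T cells had its highest ED19 sum in ED19_6. It was 135, 124 and 213 RPKM in ED19_4, ED19_5 and ED19_6, with CD3D alone at 126, 115 and 205 RPKM. The sums for epithelium, endothelium, and granulocytes and macrophages were lowest in ED19_6 among the ED19 libraries. Those for red cells, kidney and fibroblasts lay between the other ED19 libraries. The part of these marker levels in the levels of the members was not tested.

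**Figure D3:**
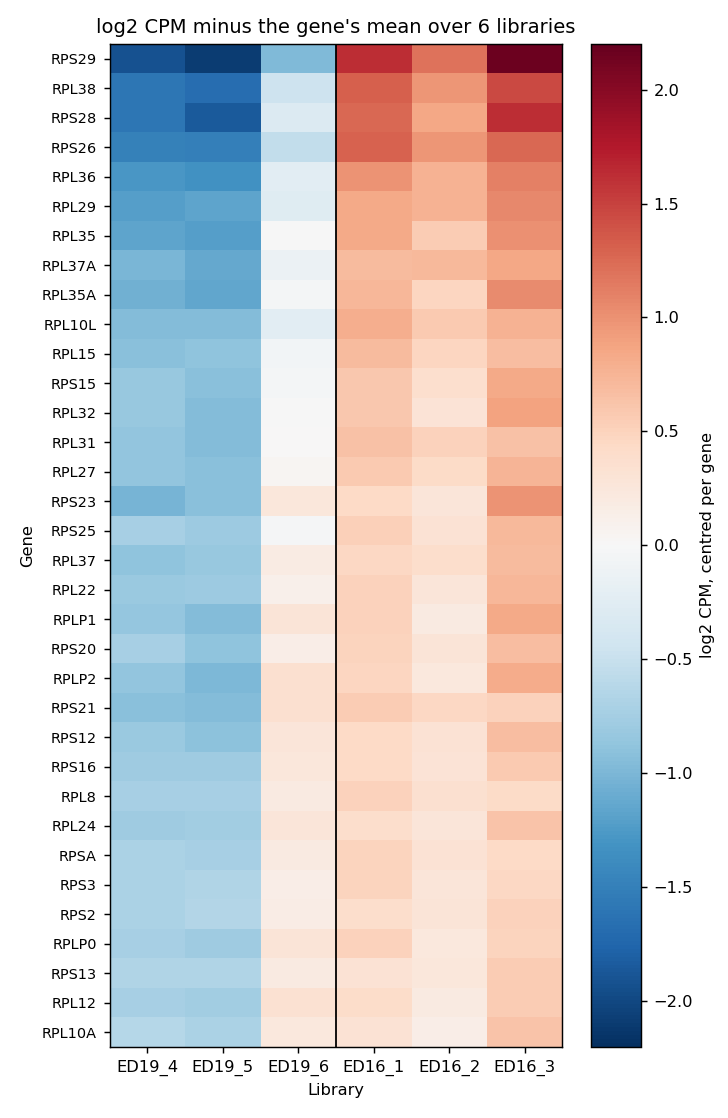
log2 CPM of 34 of the 37 genes (rows, in order of log2 fold change) minus that gene's mean over the 6 libraries (columns, ED19 left and ED16 right of the line), with blue below and red above the gene's mean. Averaged over all 37 genes, the columns stand at -0.95, -0.99 and 0.020 for ED19_4, ED19_5 and ED19_6 and at 0.65, 0.45 and 0.82 for ED16_1, ED16_2 and ED16_3.

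Gene length moved with the stage difference across the whole table, and the members are short. The length in the authors' RPKM calculation, recovered from counts and RPKM, had a median of 721 bases over the members (range 225 to 3272) and 2063 bases over all tested genes, and 36 of the 37 members were shorter than that median gene. With all tested genes split by length into 10 bins of nearly equal size, their median log2 fold change was -0.95 in the shortest bin (52 to 717 bases), -0.69 in the next (718 to 1051 bases) and 0.56 in the longest. The 18 members in the shortest bin had a median of -1.07 and the 13 in the next bin one of -0.89. These lie near the medians of all genes of those lengths. The longer members lay further from them. The 3 members of 1052 to 1366 bases had a median of -2.28, against -0.41 for all genes of that bin. RPLP2, RPL15 and RPS16, each alone in its bin, were at -0.89, -1.19 and -0.81, against -0.20, -0.08 and 0.39. Members had to be called and all tested genes did not, so nothing is read from these gaps.

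Other genes at or above the lowest member's level had smaller median differences in the shortest bin and the next. Unlike the members, they needed no call in this contrast, and they can include ribosomal protein genes without a symbol. Nothing is read from the gap for that reason. The 34 non-members of the shortest bin with at least the lowest member's mean log2 CPM had a median of -0.63, and the 48 such genes of the next bin one of -0.34. Over all 281 non-members within the members' range of lengths and above their lowest level the median was -0.12, and 55.9% of them were lower at ED19. RPS16 alone sets the upper end of that range, so this set holds many genes longer than most members. It is not matched to the members in length. In the bins from 1367 to 3028 bases, abundant non-members had medians of -0.026 to 0.25. The study gives a higher mean RNA integrity score for its ED19 samples than for its ED16 samples. By its tables, every ED19 library also had a lower GC content of reads and a larger share of mapped reads than every ED16 library. The part of gene length, RNA integrity, GC content and mapping in the difference was not tested.

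**Figure D4:**
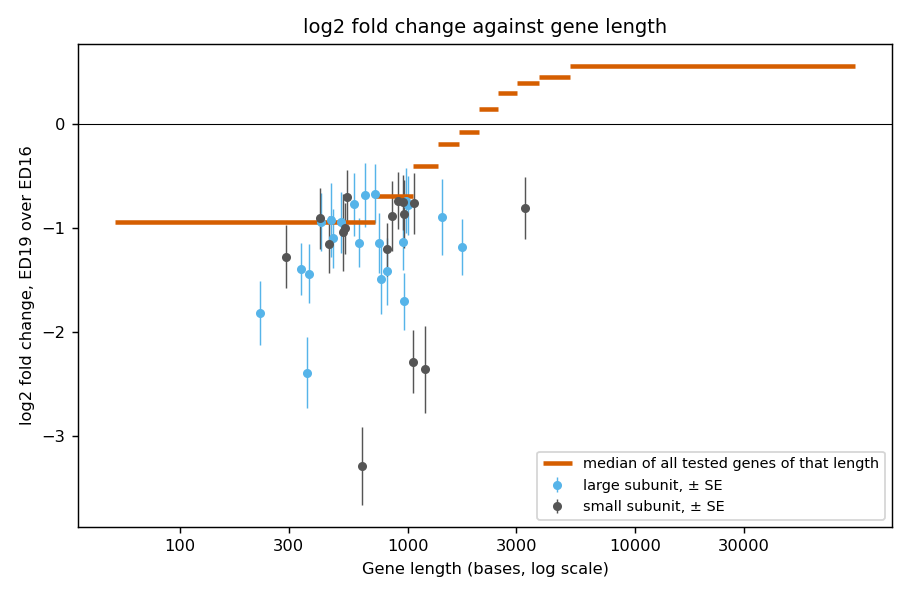
log2 fold change of ED19 over ED16 (vertical axis) against gene length in bases (horizontal log axis) for the 21 large-subunit genes (blue) and the 16 small-subunit genes (dark grey), with standard errors from edgeR as bars. Orange lines give the median of all tested genes in each of 10 length bins, -0.95 in the shortest and 0.56 in the longest, and RPS29 lies lowest at -3.28.

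When each library was corrected for gene length with a loess curve, the median log2 fold change of the members was -0.45, with -0.05 over all tested genes. In that fit 36 of the 37 members were below 0 and 15 (40.5%) were called lower by edgeR, near the 34.6% of all tested genes called lower. Of the 37 members, 27 moved by more than the spread between replicates and 1, RPS13, turned to 0.025. RPS13 was among 7 members that came to lie between -0.2 and 0.2, with RPL12 at -0.056, RPL10A at -0.082, RPL24 at -0.094, RPS20 at -0.12, RPL22 at -0.15 and RPLP1 at -0.16. RPS29 at -2.64, RPS28 at -2.08, RPS26 at -1.92 and RPL38 at -1.60 were still the 4 lowest. RPS16, the longest member, was at -1.15 in this fit and at -0.81 without the correction. Its corrected value rests on the 3272 bases of the authors' calculation. Among the members themselves length and log2 fold change were only loosely related, with a Spearman's rho of 0.23 over 37 genes that share their libraries.

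Other genes of the translation machinery were looked up by name in the same table of called genes, so nearly all of them had to be called and only their direction and size are described. For all lists below, the shares over all tested genes were 35.6% called lower at ED19 and 30.8% called higher. Nothing is read from the counts called. Of 24 listed ribosome-associated factors and genes with the same pyrimidine start, 3 had a symbol. GNB2L1, the scaffold protein RACK1 on the head of the small subunit, was the gene with most counts and had a mean of 1696 RPKM at ED19 and 2687 RPKM at ED16, a log2 fold change of -0.70 (standard error 0.23). EIF3K, a subunit of the initiation factor that loads the small subunit, was lower at ED19 (-1.13, standard error 0.24), and EIF3E, another subunit of that factor, was higher (0.96, standard error 0.22).

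Genes that build ribosomes were called in both directions. Of 93 listed biogenesis genes 32 had a symbol, and 14 of these were called lower and 18 higher at ED19, at a median of 0.71 on the log2 scale, or 0.34 after the length correction. BMS1, a GTPase of small-subunit assembly, had a mean of 62.1 RPKM at ED19 and 36.5 RPKM at ED16. UTP20, of the same assembly pathway, had 29.3 RPKM at ED19 and 11.4 RPKM at ED16. Both were called higher at ED19, by 0.72 (standard error 0.14) and 1.30 (standard error 0.13) on the log2 scale. DDX54, a helicase of the nucleolus, and FTSJ3, a methyltransferase of ribosomal RNA, were called lower, with differences of -1.13 (standard error 0.15) and -0.65 (standard error 0.15).

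Of 18 listed subunits and factors of RNA polymerase I, which transcribes ribosomal RNA, 11 had a symbol, and 6 were called lower and 5 higher at ED19. POLR2E, POLR2L and POLR2H, subunits shared with other polymerases, were lower at ED19, at -1.13, -1.20 and -1.12 on the log2 scale. These subunits are 951, 493 and 901 bases long. POLR1A, the largest subunit and particular to polymerase I, is 5124 bases long. POLR1A was higher on average, with a mean of 15.7 RPKM at ED19 and 8.72 RPKM at ED16, but its stages overlapped. It had 19.2, 18.8 and 9.01 RPKM in ED19_4, ED19_5 and ED19_6. In ED16_1, ED16_2 and ED16_3 it had 8.49, 10.2 and 7.46 RPKM, so ED19_6 lay below ED16_2. Of 20 listed genes of the signalling that controls ribosomal protein mRNAs 10 had a symbol, with 4 called lower and 6 higher at ED19. EIF4E, the cap-binding factor, had 45.8 RPKM at ED19 and 25.9 RPKM at ED16, and RPS6KB1, the kinase of the small-subunit protein S6, had 34.6 RPKM at ED19 and 14.1 RPKM at ED16. EIF4EBP1, which holds back EIF4E, had 200.3 RPKM at ED19 and 319 RPKM at ED16. EIF4EBP1 is 779 bases long, against 4817 bases for EIF4E and 2806 bases for RPS6KB1. Over the 11 polymerase genes the median log2 fold change was -0.80, or -0.0055 after the length correction. Over the 10 signalling genes it was 0.91, or 0.65 after the correction. The part of gene length in the differences of single genes was not tested.

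The mitochondrial ribosomal proteins, which are encoded in the nucleus and serve the separate ribosome of mitochondria, were of like length and like direction. All 21 with a symbol had a log2 fold change below 0, where 51.4% of all tested genes did. At ED19, 20 were called lower by edgeR, where 35.6% of all tested genes were. They were found among called genes only, so nothing is read from these counts. Their median was -1.19 (-0.70 after the length correction) at a median length of 740 bases. Their summed level was 1142, 1086 and 1913 RPKM in ED19_4, ED19_5 and ED19_6, against 3589.7, 3056 and 3904 RPKM in ED16_1, ED16_2 and ED16_3, so ED19_6 was again the highest ED19 library.

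The genes whose profile was most like that of the members were sought among all other genes with a symbol, by Pearson's r of log2 CPM with the members' average over the 6 libraries. The first 5 were TSEN15, MRPL55, PCDH10, SNAPIN and CCDC137, with r between 0.9993 and 0.9998, a description over 6 libraries with no test. TSEN15, a subunit of the enzyme that splices tRNA, had 5.26, 4.95 and 6.56 RPKM in the ED19 libraries and 8.86, 8.43 and 9.26 RPKM in the ED16 libraries. MRPL55, of the mitochondrial ribosome, had 44.022, 40.835 and 74.996 RPKM at ED19 and 135, 119 and 151 RPKM at ED16. In both genes the stages did not overlap and ED19_6 was the highest ED19 library. SNAPIN, a protein of vesicle transport, had 36.6, 34.8 and 61.5 RPKM at ED19 and 109.6, 92.1 and 117 RPKM at ED16. PCDH10, a cell adhesion protein, had almost no reads, at 0, 0 and 0.0327 RPKM at ED19 and 0.134, 0.0958 and 0.164 RPKM at ED16. CCDC137, a coiled-coil protein, had 33.9, 31.5 and 51.9 RPKM at ED19 and 88.8, 78.3 and 96.2 RPKM at ED16.

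Markers of other cell types could be found among called genes only, so only their direction and level are described. Symbols were found for 6 of 11 listed red cell markers, 6 of 9 kidney markers and 9 of 9 epithelial markers. For fibroblasts it was 5 of 8, for endothelium 5 of 7 and for T cells 6 of 8. For granulocytes and macrophages it was 6 of 10. The summed level of the 6 red cell markers was 153 to 268 RPKM at ED19 and 3876 to 5677 RPKM at ED16, and all 6 were called lower. The 6 kidney markers were at 0.213 to 0.343 RPKM at ED19 and 68.6 to 210.04 RPKM at ED16, with AGXT and PIPOX at 0 in every ED19 library. The 9 epithelial markers found, of which 8 were tested and all 8 called lower, were at 5.24 to 6.58 RPKM at ED19 and 129 to 281 RPKM at ED16. All 5 fibroblast markers were lower, at 3.96 to 5.75 RPKM at ED19 and 17.7 to 20.6 RPKM at ED16, and of the 5 endothelial markers found 4 were tested, of which 3 were lower and 1 was higher, at 3.78 to 13.1 RPKM at ED19 and 3.62 to 5.65 RPKM at ED16, with KDR at 0 in every ED19 library. All 6 T-cell markers were lower, at 124 to 213 RPKM at ED19 and 253 to 322 RPKM at ED16, and so were all 6 markers of granulocytes and macrophages, at 13.3 to 17.3 RPKM at ED19 and 48.8 to 68.7 RPKM at ED16. Over all 41 tested markers of other cell types the median log2 fold change was -4.17. In bulk samples fewer cells of a type and less RNA per cell cannot be told apart, and the part of these cells in the level of the ribosomal protein mRNAs was not tested.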

How the data were processed

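The authors aligned clean reads to galGal4 with TopHat 2.0.12 and counted reads per gene with HTSeq, and the counts they deposited were used as they stand. They also deposited RPKM, which were checked to equal the count over gene length and library total. Their table of called genes holds a signal per stage, deposited as the mean of size-factor normalized counts, with gene names, fold changes and p-values from DESeq. Only its gene names and domain texts were used.

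Counts were tested with edgeR 4.0.16 in R 4.3.3 (filterByExpr, TMM, quasi-likelihood F test, Benjamini-Hochberg adjustment, threshold 0.05). The standard error is the log2 fold change divided by the square root of F. Library totals ranged from 27087661 to 34614652, and 3 libraries per stage limit the precision. Profiles used log2 CPM with a prior count of 1. Alternatives were upper-quartile scaling, a loess correction for gene length (span 0.5), DESeq2 1.42.0, a filter of 10 counts in each library or none, limma 3.58.1 on log2(RPKM + 1) and log2(RPKM + 0.1), and leaving out each library. The fits were run on simulated data, in which few genes were set to change and no library stood apart as ED19_6 does. This checks the code and not how well the fits suit these data. Summaries used Python 3.11.15, pandas 2.3.3, numpy 2.4.6, scipy 1.17.1 and matplotlib 3.10.9.

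Values per library are given for the 6 members with the largest and the 6 with the smallest log2 fold change, the 4 with the highest and the 4 with the lowest mean RPKM, the stalk proteins, RPSA, RPL22 and RPL10L, and the 5 genes most like the members. Other genes of a list are those with most counts. RPL35, RPS23, RPL8 and RPS6KB2 were added after their values were seen. The members and all lists were chosen with earlier results of these data known. RefSeq (GRCg7b) was used for names only: 34 of the 37 members were found by symbol. The sequences and GC content of genes were not used here. A few members enter all counts and medians but are not reported here by name.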

Additional observations from a re-analysis of the deposited data

How the results depend on the processing

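All 37 members stayed below 0 under every alternative except the length corrections, and the median of the members kept its direction in the same fits. Upper-quartile scaling gave a median of -1.25 (all tested genes -0.26), DESeq2 -1.04 (-0.26), a fit with no filter -1.03 (-0.24), one with 10 counts or more in each library -1.17 (0.041), and limma -1.08 with either pseudocount. Leaving out each library gave medians from -1.41 without ED19_6 to -0.86 without ED19_5, and 19 to 37 members called lower by edgeR, while 4365 to 5793 of all tested genes were. It was 37 without ED19_6, where 5793 genes were called lower, and 19 without ED16_3, ED19_4 or ED19_5, where 4784, 4739 and 4669 were.

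The length correction gave a median of -0.45, with 36 members below 0 and 15 (40.5%) called lower, near the 34.6% of all tested genes, and RPS13 turned to 0.025. The correlation of log2 fold change with length turned to -0.31. The correction is centred by taking away the mean of each library's loess curve over the tested genes. A form without this centring, chosen after seeing the data, gave a member median of 0.058 with all tested genes at 0.45. In it 17 members were below 0 and 5 (13.5%) were called lower, against 24.4% of all tested genes. The members' position relative to all genes was thus below the median of all genes in both forms, while the sign against 0 depended on the centring. Leaving out the 10 other genes with most counts raised the ED16 share of counts to 7.13%. The correlation with length ranged from 0.17 to 0.25 over the fits that leave out a library.

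No paired analysis was possible because the stages share no replicate numbers. A comparison of ribosomal protein genes chosen by reference name, and sequence features of promoters and proteins, were not run, since the reference used here pairs no names with the files' identifiers and holds no sequences. Depth limits no member, whose lowest count was 2813, and 3 libraries per stage, ED19_6 apart from the others, limit the precision.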

Other observations

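A pair of called genes had no symbol but a domain text that names a cytosolic ribosomal protein, so the name rule did not take them in. ENSGALG00000004952, described with the zinc-binding domain of ribosomal protein L44e, had 147, 125 and 194 RPKM in ED19_4, ED19_5 and ED19_6, against 419.8, 335 and 671 RPKM in ED16_1, ED16_2 and ED16_3. Its log2 fold change was -1.65 (standard error 0.31). ENSGALG00000028992, described as ribosomal protein L34Ae, had 589, 494 and 1004 RPKM at ED19 and 1196, 1138 and 1368 RPKM at ED16, a log2 fold change of -0.84 (standard error 0.31). In both genes the stages did not overlap in RPKM and ED19_6 was the highest ED19 library, as in all 37 members.

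RefSeq's chicken annotation holds 72 symbols that meet the name rule, of which 34 were found among the 37 members and 38 were not. Whether those 38 genes changed between the stages was not analysed here. RPS19BP1, a protein that binds RPS19 and is no part of the ribosome, is among the 38.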
